A study of Mus musculus with 17 samples.

Results

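The genes described here encode 10 proteins of cellular antioxidant defence: the superoxide dismutases Sod1 and Sod2, the catalase Cat, the glutathione peroxidases Gpx1 and Gpx4, the peroxiredoxins Prdx1 and Prdx2, the transcription factor NRF2 (Nfe2l2), and Hmox1 and Nqo1. They were taken by gene symbol, each symbol matched 1 row, and all 10 were present among the 26029 genes counted in model 1 and the 24659 genes counted in model 2. RNA-seq was performed on erythroid blasts of 17 Spi1-transgenic mice, with 1 library per mouse, and the blasts had been kept in culture with erythropoietin (EPO). In model 1 (strain DBA2JxFVB/N, 400 ng of RNA, 8 min of fragmentation), 4 preleukaemic mice had intact Fanca (TgSpi1FA+/+; preleukemic_445, preleukemic_479, preleukemic_451 and preleukemic_138), 3 preleukaemic mice were Fanca-null (TgSpi1FA−/−; preleukemic_77, preleukemic_224 and preleukemic_40) and 3 leukaemic mice were Fanca-null (leukemic_26, leukemic_28 and leukemic_39). In model 2 (strain DBA2J, 300 ng of RNA, 2 min of fragmentation), all mice were TgSpi1FA+/+, with 4 preleukaemic (preleukemic_633, preleukemic_663, preleukemic_812 and preleukemic_837) and 3 leukaemic mice (leukemic_601, leukemic_606 and leukemic_921), whose leukaemia had emerged after serial blood transfusion. By their labels, all mice carried the Spi1 transgene, which encodes the transcription factor PU.1. For preleukemic_77, preleukemic_224 and preleukemic_40 the sample titles give the preleukaemic stage, which is used here, although another label and the column names call them leukaemic. No leukaemic TgSpi1FA+/+ cells of model 1 and no TgSpi1FA−/− cells of model 2 were analysed here, and ages were not in the sources used here. Mice are named by the end of their sample title.

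Cells that use oxygen form superoxide, which superoxide dismutases turn into hydrogen peroxide, and catalase, glutathione peroxidases and peroxiredoxins then remove the peroxide. Red cell precursors make large amounts of haem and handle much iron, and erythroid cells are known for abundant catalase, Gpx1 and Prdx2. NRF2 is held in check by KEAP1 and, once free, binds antioxidant response elements together with small MAF proteins, where it drives genes of glutathione, thioredoxin and NADPH supply, with Nqo1 and Hmox1 as classical targets.

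Promoter windows of 250 bases before to 50 bases after the start site (RefSeq, GRCm38.p6) were found for 9 of the 10 genes and searched on both strands, because these genes are often described as NRF2 targets and the cells carry a transgene for PU.1. The core of the antioxidant response element (TGACNNNGC) was matched in 3 of the 10 genes, namely Nfe2l2, Prdx1 and Sod1, and in 12.4% of all 32851 promoter windows. The AP-1 and NF-E2 core (TGANTCA) was matched in Prdx1 alone, against 7.81% of all windows, and 1 of its 2 matches there overlaps the antioxidant response element core. The PU.1 core (GAGGAA) was matched in 3 of the 10 genes, against 28.3% of all windows, and GATAA in windows of Gpx4, against 25.4%. Gpx1, Prdx2 and Nqo1 held none of the 4 motifs in their windows, and for Hmox1 no window was used. The stretches below run 5′ to 3′ on the strand of the gene and lie upstream of its start site. Capitals mark the antioxidant response element core, which is on the opposite strand in Prdx1 and Sod1.
Nfe2l2, chr2:75704884-75704913, minus strand: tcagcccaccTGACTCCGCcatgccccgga
Prdx1, chr4:116685456-116685485, plus strand: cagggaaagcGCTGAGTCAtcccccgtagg
Sod1, chr16:90220696-90220725, plus strand: gccaaggtggGCGTGGTCAgactcaggcct

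Levels are given as CPM, the count of a gene relative to the library size as scaled by edgeR's TMM method. Total counts were 29964576 to 38217654 per library in model 1 and 37726753 to 40514205 in model 2. Fanca was between 0.615 and 2.3 CPM in the 6 TgSpi1FA−/− libraries and between 28.2 and 83.5 CPM in the 4 TgSpi1FA+/+ libraries of model 1. Spi1 was between 467 and 1061 CPM in 8 libraries of model 1, 219.7 CPM in leukemic_28 and 3.88 CPM in leukemic_39 (4.67 CPM in a second table of counts for this mouse), so that the level in the library labelled leukemic_39 goes against a transgene that is expressed throughout. The same library was the lowest of the 10 in model 1 for Cat, Nqo1, Gpx1 and Hmox1, and whether this is tied to Spi1 was not tested. The libraries of preleukemic_445 and preleukemic_479 were far closer to each other (chi-square per degree of freedom 8.53) than any other pair of mice of one group in model 1 (114 to 372), although they differed by more than counting error. The summed erythroid markers were 6509 to 9683 CPM in TgSpi1FA+/+ preleukaemic, 6918 to 7048 CPM in TgSpi1FA−/− preleukaemic and 2530 to 5309 CPM in leukaemic cells of model 1. In model 2 they were 6605 to 10790 CPM in preleukaemic and 3471 to 6682 CPM in leukaemic cells. Myeloid markers summed to at most 3.95 CPM and lymphoid markers to at most 0.384 CPM in any library, with Mpo at most 0.178 CPM and Cd3e at most 0.17 CPM in model 1. Megakaryocyte markers summed to 174 to 276 CPM in the leukaemic, 45.9 to 60.2 CPM in the TgSpi1FA−/− preleukaemic and 60.9 to 205 CPM in the TgSpi1FA+/+ preleukaemic cells of model 1, the last of which overlapped with the leukaemic range. In model 2, megakaryocyte markers summed to 11.2 to 117 CPM in the leukaemic and 32.0 to 90.55 CPM in the preleukaemic cells, which overlapped. Mast cell markers summed to 98.3 to 155 CPM in the leukaemic and 3.73 to 59.1 CPM in the preleukaemic cells of model 2. In model 1, mast cell markers summed to 0.355 to 11.3 CPM in leukaemic cells. They were 2.36 to 32.0 CPM in TgSpi1FA−/− and 8.75 to 93.85 CPM in TgSpi1FA+/+ preleukaemic cells. Stromal and endothelial markers summed to 148 to 452 CPM in the leukaemic, 139 to 253 CPM in the TgSpi1FA+/+ preleukaemic and 27.5 to 717 CPM in the TgSpi1FA−/− preleukaemic cells of model 1, where preleukemic_40 stood apart (717 CPM, beside 27.5 and 97.4 CPM), and to 15.7 to 296 CPM in model 2. Of these, Kdr, a receptor of endothelial cells, was called higher in leukaemic than in preleukaemic TgSpi1FA−/− cells (log2 fold change 5.61, SE 0.82, adjusted p = 0.00770). The part of these markers in the values below was not tested. Fewer cells of a type and less RNA per cell cannot be told apart in such bulk libraries.

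The clearest pattern among the 10 genes was a lower level of Cat in leukaemic than in preleukaemic cells of the same Fanca genotype, by 2.1-fold in TgSpi1FA−/− cells of model 1 and 2.27-fold in TgSpi1FA+/+ cells of model 2, without overlap between mice in either model. Nqo1 was the most variable, and Sod1, Sod2, Prdx1, Prdx2, Gpx4 and Nfe2l2 stayed within a 2-fold range over the 10 libraries of model 1. In the second table of counts, for 7 of these mice, Nfe2l2 (2.86-fold), Gpx4 (2.675-fold), Prdx1 (2.21-fold) and Prdx2 (2.03-fold) did not, whereas Sod1 and Sod2 did. In model 2, leukaemic cells had less Nfe2l2 and more Gpx4 than preleukaemic cells in every mouse. None of these differences passed an adjusted p of 0.05 with a fold change of at least 1.5 (edgeR quasi-likelihood test, Benjamini-Hochberg adjustment over all genes tested), and all 10 genes passed the filter on low counts in both models. The comparisons within model 1 share groups and are given side by side.
Between leukaemic and preleukaemic TgSpi1FA−/− cells, 13.3% of 13393 tested genes passed that threshold and 0 of the 10. Cat was the 1 gene of the 10 with an unadjusted p under 0.05, beside 32.4% of all genes. Cat and Nqo1 did not overlap between the groups, both lower, beside 38.7% of all genes without overlap (19.4% higher and 19.3% lower). DESeq2's Wald test called Cat (19.8% of all genes called).
Between TgSpi1FA−/− and TgSpi1FA+/+ preleukaemic cells, 0.00747% of genes passed (1 gene) and 0 of the 10. None of the 10 had an unadjusted p under 0.05 in edgeR's test (8.65% of all genes), and DESeq2 called 0 of the 10 (1.87% of all genes). All 10 overlapped between the groups, beside 8.53% of all genes without overlap (4.26% higher and 4.27% lower).
Between TgSpi1FA−/− leukaemic and TgSpi1FA+/+ preleukaemic cells, 7.01% of genes passed and 0 of the 10. Cat and Nqo1 had an unadjusted p under 0.05 (27.2% of all genes), and DESeq2 called Nqo1 (14.8% of all genes). Sod1 was the 1 gene without overlap, beside 25.7% of all genes (12.8% higher and 12.9% lower), although it overlapped in the second table of counts.
In model 2, 0 of 12970 genes passed in edgeR's test (0%), and DESeq2 called 470 genes (3.45%) and 0 of the 10. Cat, Gpx4 and Nfe2l2 had an unadjusted p under 0.05, beside 2587 of all genes (19.9%). The same 3 genes were those without overlap, beside 20.1% of all genes.
A direct test of whether the change from preleukaemic to leukaemic cells differed between the models passed an adjusted p of 0.05 for 4.61% of 14597 genes (2.76% higher and 1.85% lower in model 1) and for 0 of the 10. Gpx1, Gpx4 and Nfe2l2 had an unadjusted p under 0.05 there (25.8% of all genes), and DESeq2 called 0 of the 10 (13.6% of all genes).
The median absolute log2 fold change of the 10 genes from preleukaemic to leukaemic TgSpi1FA−/− cells was 0.10, beside 0.51 over all genes tested, and in model 2 it was 0.41 beside 0.48. The 10 genes and all genes tested were not matched for level, so these medians do not show that the 10 were more stable.

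**Figure D1:**
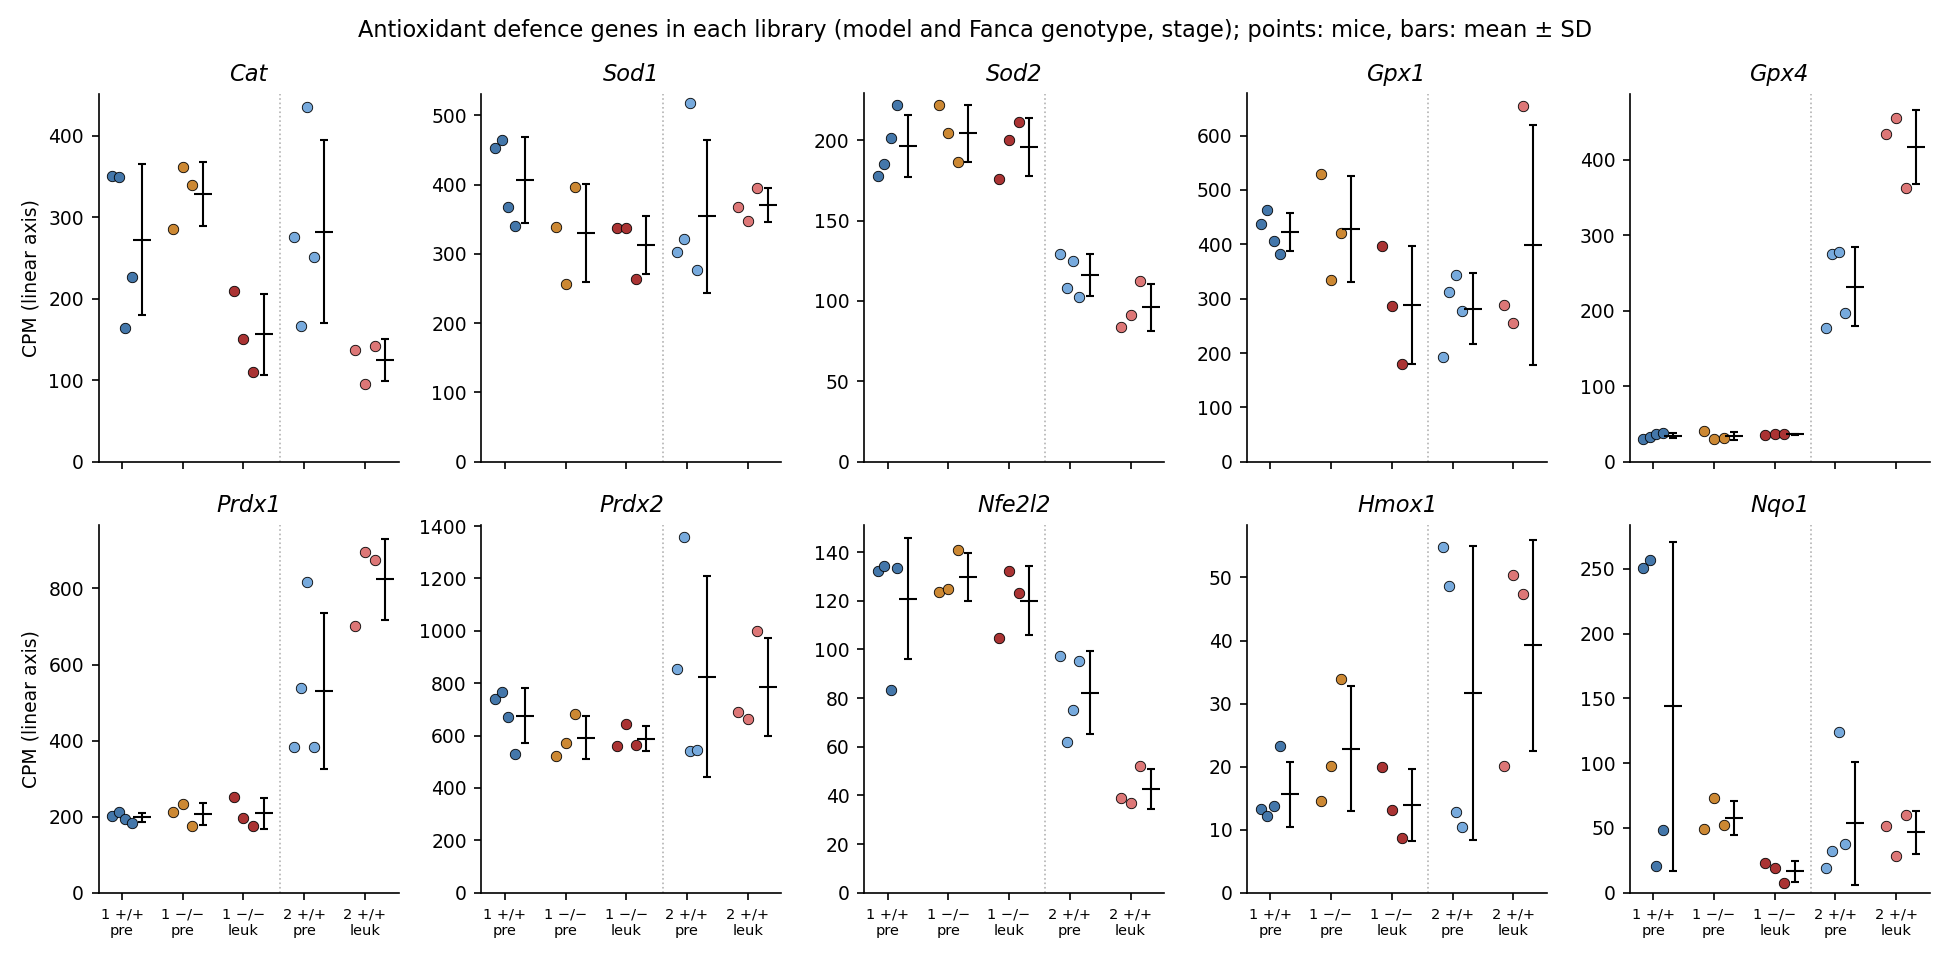
CPM of each of the 10 genes (y axis, linear, from 0) in the 17 libraries, grouped on the x axis by model (1 or 2), Fanca genotype (+/+ or −/−) and stage; points are mice, and the bar beside them is the mean with the SD. Cat was lower in the leukaemic than in the preleukaemic cells of the same genotype in both models without overlap, whereas Sod2 and Prdx2 lay close together across the groups of model 1.

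**Figure D2:**
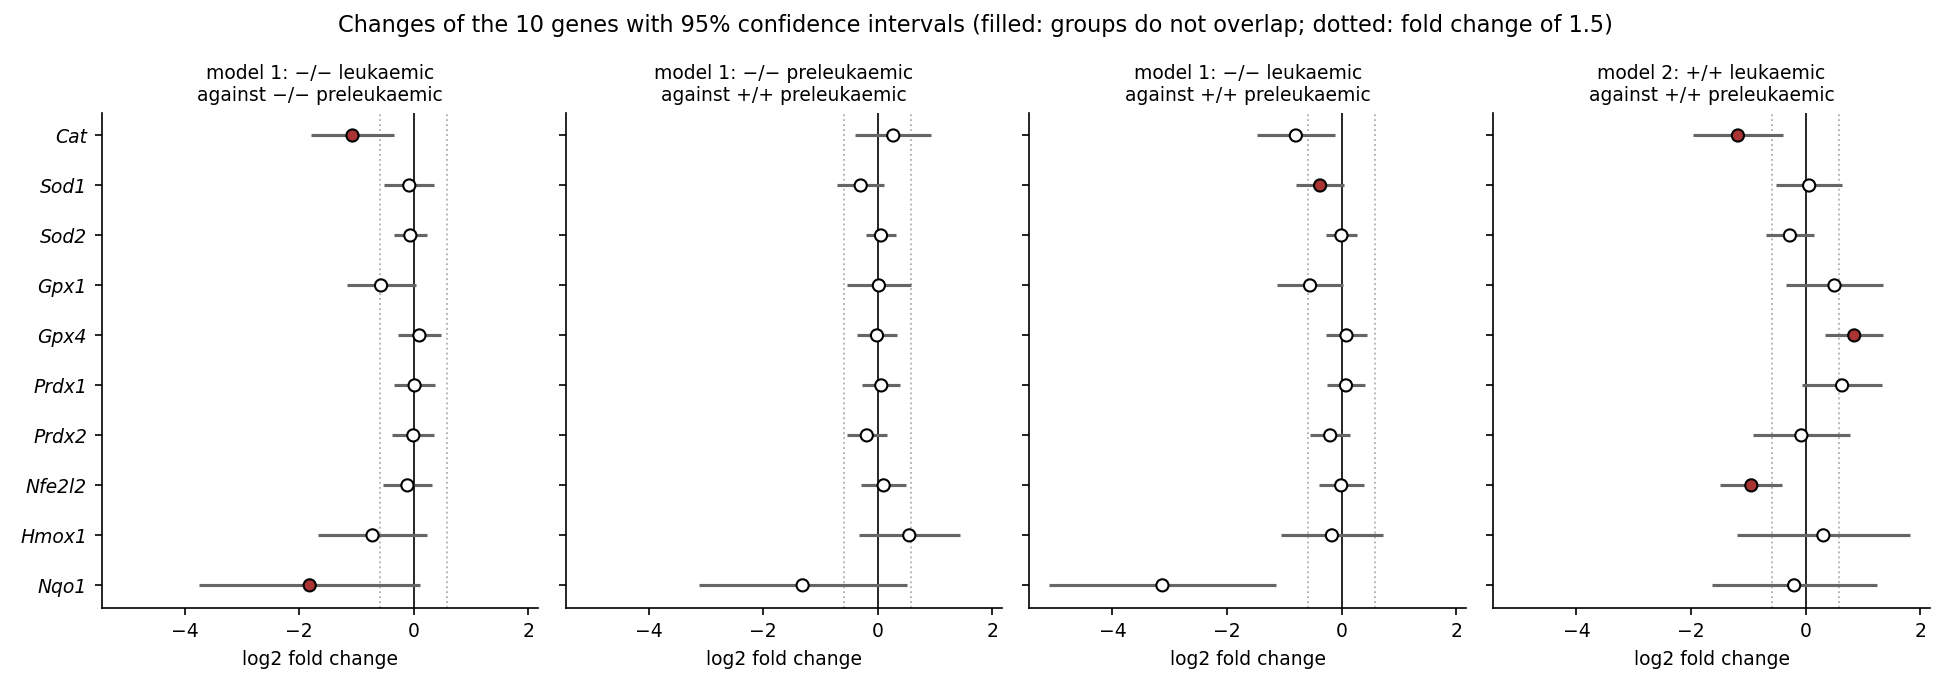
Log2 fold change (x axis) of the 10 genes (y axis) in 4 comparisons with the 95% confidence interval of edgeR's quasi-likelihood fit; filled points mark genes whose groups do not overlap, and dotted lines mark a fold change of 1.5. Cat lay at −1.07 and −1.18 in the leukaemic comparisons within each genotype, and the intervals of Nqo1 were the widest in model 1.

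Cat encodes catalase, which breaks hydrogen peroxide down in peroxisomes (ENSMUSG00000027187, chromosome 2, 103453849 to 103485160, minus strand). In TgSpi1FA−/− leukaemic cells Cat was at 209.5 CPM in leukemic_26, 150.1 CPM in leukemic_28 and 110.2 CPM in leukemic_39. In TgSpi1FA−/− preleukaemic cells it was at 285 CPM in preleukemic_77, 362 CPM in preleukemic_224 and 339.9 CPM in preleukemic_40. All leukaemic values lay below all preleukaemic values, as for 19.3% of all tested genes. The means were 157 ± 49.96 and 329 ± 39.3 CPM (SD, n = 3 each), and the log2 fold change was −1.07 (SE 0.32, 95% confidence interval −1.79 to −0.35, adjusted p = 0.0534). Cat was called in 3 of 17 alternatives, with an adjusted p between 0.0308 and 0.158 over all of them. The 3 were DESeq2 (adjusted p = 0.0308) and edgeR without preleukemic_451 (0.0373) or without leukemic_26 (0.0329). The adjusted p was 0.154 without leukemic_39 and 0.158 without leukemic_28.
The 4 TgSpi1FA+/+ preleukaemic mice of model 1 differed widely in Cat, with 350.3 CPM in preleukemic_445, 349 CPM in preleukemic_479, 165 CPM in preleukemic_451 and 227 CPM in preleukemic_138. These values overlapped with both TgSpi1FA−/− groups. Cat had a log2 fold change of 0.27 for TgSpi1FA−/− against TgSpi1FA+/+ preleukaemic cells (SE 0.29, adjusted p = 0.847) and of −0.80 for TgSpi1FA−/− leukaemic against TgSpi1FA+/+ preleukaemic cells (SE 0.30, adjusted p = 0.126). Without preleukemic_445 and preleukemic_479, the former was 0.75 (SE 0.29, adjusted p = 1) and the latter −0.33 (adjusted p = 0.588, with 0.113% of all genes called).
In model 2, Cat was at 276 CPM in preleukemic_633, 167 CPM in preleukemic_663, 435 CPM in preleukemic_812 and 252 CPM in preleukemic_837 before leukaemia. It was at 137 CPM in leukemic_601, 94.9 CPM in leukemic_606 and 142 CPM in leukemic_921 in leukaemic cells. The groups again did not overlap (10.4% of all genes were lower without overlap), with a log2 fold change of −1.18 (SE 0.34, 95% confidence interval −1.96 to −0.40, adjusted p = 0.162). The changes in both models differed by 0.10 on the log2 scale (95% confidence interval −0.91 to 1.12, adjusted p = 0.921). Summed erythroid markers were lower in the leukaemic groups of both models (values above), and their part in the values of Cat was not tested.

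Nqo1, an NAD(P)H quinone reductase and a classical NRF2 target (ENSMUSG00000003849, chromosome 8, 107388225 to 107403206, minus strand), varied most among the 10 genes, with a 34.6-fold range over the 10 libraries of model 1. It was at 250.4 CPM in preleukemic_445 and 257 CPM in preleukemic_479, but at 20.4 CPM in preleukemic_451 and 48.7 CPM in preleukemic_138. The spread within the TgSpi1FA+/+ preleukaemic group (144 ± 127 CPM, SD, n = 4) rested on the pair of near-identical libraries. TgSpi1FA−/− preleukaemic cells were at 49.0 CPM in preleukemic_77, 73.0 CPM in preleukemic_224 and 52.1 CPM in preleukemic_40. TgSpi1FA−/− leukaemic cells were at 22.9 CPM in leukemic_26, 19.1 CPM in leukemic_28 and 7.41 CPM in leukemic_39. The leukaemic values lay below all TgSpi1FA−/− preleukaemic values, whereas they overlapped with the TgSpi1FA+/+ group through preleukemic_451.
The log2 fold change of Nqo1 was −1.82 between leukaemic and preleukaemic TgSpi1FA−/− cells (SE 0.86, adjusted p = 0.176, and −1.44 without leukemic_39) and −1.31 between the preleukaemic genotypes (SE 0.80, adjusted p = 0.686). It was −3.13 for TgSpi1FA−/− leukaemic against TgSpi1FA+/+ preleukaemic cells (SE 0.88, 95% confidence interval −5.10 to −1.15, adjusted p = 0.0602). DESeq2 gave an adjusted p of 0.00112 for the last difference, and edgeR gave 0.0420 without preleukemic_451 and 0.0381 without preleukemic_138 (2.86% and 11.6% of all genes called). Without preleukemic_445 and preleukemic_479 it was −1.07 (adjusted p = 0.343), and the difference between the preleukaemic genotypes turned to 0.75 (adjusted p = 1, with 0.00708% of all genes called).
In model 2, Nqo1 was at 19.5 CPM in preleukemic_633, 32.5 CPM in preleukemic_663, 124 CPM in preleukemic_812 and 37.9 CPM in preleukemic_837, and at 51.3 CPM in leukemic_601, 28.4 CPM in leukemic_606 and 60.1 CPM in leukemic_921 after leukaemic progression. The groups overlapped, and the log2 fold change was −0.20 (SE 0.62, adjusted p = 0.886), which turned to 0.66 without preleukemic_812. The difference between the changes of both models was −1.62 (95% confidence interval −4.01 to 0.77, adjusted p = 0.381).

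Hmox1 encodes the inducible haem oxygenase, which degrades haem. It was at 13.4 CPM in preleukemic_445, 12.2 CPM in preleukemic_479, 13.8 CPM in preleukemic_451 and 23.2 CPM in preleukemic_138. In TgSpi1FA−/− preleukaemic cells it was at 14.6 CPM in preleukemic_77, 20.2 CPM in preleukemic_224 and 33.8 CPM in preleukemic_40, and in leukaemic cells at 19.9 CPM in leukemic_26, 13.1 CPM in leukemic_28 and 8.63 CPM in leukemic_39. All 3 groups of model 1 overlapped. Hmox1 differed by 0.55 on the log2 scale between the preleukaemic genotypes (SE 0.39, adjusted p = 0.731) and by −0.72 between leukaemic and preleukaemic TgSpi1FA−/− cells (SE 0.42, adjusted p = 0.268, and −0.44 without leukemic_39).
In model 2, preleukaemic Hmox1 values split into 54.9 CPM in preleukemic_633 and 48.6 CPM in preleukemic_663 on one side and 12.9 CPM in preleukemic_812 and 10.4 CPM in preleukemic_837 on the other. Leukaemic values were 20.0 CPM in leukemic_601, 50.4 CPM in leukemic_606 and 47.4 CPM in leukemic_921. The groups overlapped, and the log2 fold change of 0.31 had a 95% confidence interval of −1.20 to 1.82 (adjusted p = 0.824).

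Nfe2l2, which encodes NRF2 itself, stayed within a 1.69-fold range over the 10 libraries of model 1. It was between 105 and 132 CPM in TgSpi1FA−/− leukaemic cells, between 124 and 141 CPM in TgSpi1FA−/− preleukaemic cells and between 132 and 134 CPM in 3 of the TgSpi1FA+/+ mice, with preleukemic_451 at 83.5 CPM. Between leukaemic and preleukaemic TgSpi1FA−/− cells it differed by −0.11 on the log2 scale (95% confidence interval −0.53 to 0.31, adjusted p = 0.721). In the second table it was between 66.5 and 80.2 CPM in TgSpi1FA−/− leukaemic cells and between 50.5 and 145 CPM in TgSpi1FA+/+ preleukaemic cells. Its log2 fold change there was −0.44 (SE 0.33, adjusted p = 0.502).
In model 2, Nfe2l2 was at 97.1 CPM in preleukemic_633, 61.8 CPM in preleukemic_663, 75.0 CPM in preleukemic_812 and 95.2 CPM in preleukemic_837, and at 39.1 CPM in leukemic_601, 37.0 CPM in leukemic_606 and 52.0 CPM in leukemic_921 in leukaemic cells. All leukaemic values lay below all preleukaemic values (82.3 ± 16.9 CPM, n = 4, against 42.7 ± 8.13 CPM, n = 3), with a log2 fold change of −0.95 (SE 0.23, 95% confidence interval −1.49 to −0.41, adjusted p = 0.162), with an adjusted p between 0.0553 and 0.404 over the alternatives. The change in model 1 exceeded that in model 2 by 0.82 on the log2 scale (SE 0.29, adjusted p = 0.0957), which did not pass the threshold, and strain and library protocol cannot be told apart from the model in this comparison.

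Gpx4, the glutathione peroxidase that reduces lipid hydroperoxides in membranes (ENSMUSG00000075706, chromosome 10, 80047166 to 80056439, plus strand), was between 29.6 and 40.6 CPM in all 10 libraries of model 1. The 95% confidence interval of its change between leukaemic and preleukaemic TgSpi1FA−/− cells was −0.28 to 0.47 on the log2 scale, around 0.10 (adjusted p = 0.728).
In model 2, Gpx4 was at 177 CPM in preleukemic_633, 275 CPM in preleukemic_663, 277 CPM in preleukemic_812 and 198 CPM in preleukemic_837, and at 434 CPM in leukemic_601, 455 CPM in leukemic_606 and 362 CPM in leukemic_921 in leukaemic cells. It was the 1 gene of the 10 that was higher without overlap in leukaemic cells of either model (9.65% of all genes in model 2). Leukaemic cells exceeded preleukaemic cells by 0.85 on the log2 scale (SE 0.22, 95% confidence interval 0.34 to 1.36, adjusted p = 0.162). The change was smaller by 0.76 on the log2 scale in model 1 than in model 2 (SE 0.26, adjusted p = 0.0885). This difference passed the threshold when preleukemic_812 was left out (adjusted p = 0.0479, with 9.38% of all genes called). Strain and library protocol cannot be told apart from the model in this comparison. The level of Gpx4 in model 1 also depended on the table of counts (157 to 419 CPM in the second table). That table holds no TgSpi1FA−/− preleukaemic cells, so the change in model 1 could not be computed from it.
Gpx1, the cytosolic glutathione peroxidase that removes hydrogen peroxide, was at 397 CPM in leukemic_26, 287 CPM in leukemic_28 and 180.3 CPM in leukemic_39, against 529 CPM in preleukemic_77, 335 CPM in preleukemic_224 and 421 CPM in preleukemic_40. The groups overlapped and the spread among the leukaemic mice was wide (288 ± 108 CPM, n = 3). Gpx1 differed by −0.57 on the log2 scale (SE 0.27, adjusted p = 0.173), by −0.87 without leukemic_26 (adjusted p = 0.0445, with 16.5% of all genes called) and by −0.30 without leukemic_39 (adjusted p = 0.416). TgSpi1FA+/+ preleukaemic cells were between 383 and 464 CPM, so that leukaemic TgSpi1FA−/− cells overlapped with them through leukemic_26 only. In the second table, leukemic_39 was instead the highest of the leukaemic mice for Gpx1, at 268 CPM.
In model 2, Gpx1 was between 192 and 343 CPM in preleukaemic cells and at 288 CPM in leukemic_601, 255 CPM in leukemic_606 and 654 CPM in leukemic_921. The mean was higher in leukaemic cells by 0.50 on the log2 scale (SE 0.37, adjusted p = 0.478), a direction that rested on leukemic_921 (−0.048 without it), and the change in model 1 was lower by 1.09 on the log2 scale (SE 0.48, adjusted p = 0.170).

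Prdx1, a peroxiredoxin that reduces peroxides with electrons from thioredoxin, was between 175 and 253 CPM in all 10 libraries of model 1. Its log2 fold changes in model 1 were 0.01, 0.06 and 0.07, and the widest 95% confidence interval was −0.35 to 0.37 (leukaemic against preleukaemic TgSpi1FA−/− cells, adjusted p = 0.966).
In model 2, Prdx1 was at 383 CPM in preleukemic_633, 537 CPM in preleukemic_663, 817 CPM in preleukemic_812 and 382 CPM in preleukemic_837, and at 702 CPM in leukemic_601, 895 CPM in leukemic_606 and 874 CPM in leukemic_921 in leukaemic cells. Only preleukemic_812 among the preleukaemic mice reached the leukaemic range. Prdx1 differed by 0.64 on the log2 scale (SE 0.30, adjusted p = 0.285), and by 0.95 without preleukemic_812 (adjusted p = 0.0787). The difference between the changes of both models was −0.63 (adjusted p = 0.275), and −0.93 without preleukemic_812 (adjusted p = 0.0449, with 9.38% of all genes called). Here too, strain and library protocol cannot be told apart from the model.
Prdx2, the peroxiredoxin abundant in red cells, was between 523 and 766 CPM in model 1 and between 543 and 1360 CPM in model 2, with all groups overlapping. Its log2 fold change between leukaemic and preleukaemic cells was −0.01 in model 1 (95% confidence interval −0.38 to 0.36, adjusted p = 0.977) and −0.07 in model 2 (95% confidence interval −0.92 to 0.78, adjusted p = 0.931). The ends of Prdx2 overlap Rnaseh2a and Junb on the opposite strand, and whether counting used the strand is not given in the sources used here.

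Sod1, the cytosolic copper and zinc superoxide dismutase, was at 453 CPM in preleukemic_445, 465 CPM in preleukemic_479, 368 CPM in preleukemic_451 and 339.7 CPM in preleukemic_138. In TgSpi1FA−/− leukaemic cells it was at 337 CPM in leukemic_26, 337 CPM in leukemic_28 and 264 CPM in leukemic_39, below all TgSpi1FA+/+ values (12.9% of all genes were lower without overlap). The gap between preleukemic_138 and leukemic_26 was 339.7 to 337.3 CPM. This difference was −0.38 on the log2 scale (SE 0.18, 95% confidence interval −0.79 to 0.04, adjusted p = 0.221), and between the preleukaemic genotypes it was −0.30 (SE 0.18, adjusted p = 0.686). In the second table, Sod1 overlapped between TgSpi1FA−/− leukaemic cells (302 to 326 CPM) and TgSpi1FA+/+ preleukaemic cells (318 to 401 CPM). The log2 fold change was −0.23 there (SE 0.18, adjusted p = 0.530). In model 2, Sod1 was between 276 and 518 CPM in preleukaemic cells and between 347 and 396 CPM in leukaemic cells, which overlapped. Its 3′ end overlaps Scaf4 on the opposite strand.
Sod2 is the mitochondrial manganese superoxide dismutase. Relative to its level, it had the narrowest range of the 10 genes in the first table of model 1 and in model 2. It ranged from 176 to 222 CPM in model 1 (1.26-fold) and from 84.0 to 129 CPM in model 2 (1.54-fold). Its log2 fold change was −0.06 between leukaemic and preleukaemic TgSpi1FA−/− cells (95% confidence interval −0.35 to 0.22, adjusted p = 0.779), 0.06 between the preleukaemic genotypes (95% confidence interval −0.21 to 0.32) and −0.27 in model 2 (95% confidence interval −0.69 to 0.14). A change by 1.5-fold lies outside the intervals in model 1. In the second table, Sod1 had a narrower range (1.33-fold) than Sod2 (1.71-fold).

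Per kilobase of merged exon length, Gpx1 (199.9 to 297 CPM per kb) and Prdx2 (193 to 222 CPM per kb) took the first places by group mean in each of the 3 groups of model 1, and Hmox1 ranked last with 7.93 to 13.1 CPM per kb. In leukaemic cells the order of the pair was not settled, since Prdx2 exceeded Gpx1 in leukemic_28 (211 against 199.3 CPM per kb) and leukemic_39 (185 against 125 CPM per kb), and in the second table Prdx2 was ahead in both groups. Cat held the third place in both preleukaemic groups (104 and 126 CPM per kb) and the fifth in the leukaemic group (59.9 CPM per kb). In TgSpi1FA+/+ preleukaemic cells, Cat and Sod1 (102 CPM per kb) did not differ beyond the spread between mice. In model 2, Gpx1, Prdx1, Prdx2 and Gpx4 took the first 4 places in both groups (134 to 277 CPM per kb) and Sod2 the last (9.60 and 11.6 CPM per kb). These places depend on the merged length, which counts all annotated exons (10008 bases for Sod2, 1441 for Gpx1). The transcripts in use were not examined. By mean CPM without length, Prdx2 exceeded Gpx1 in each group of model 1 (589 against 288 CPM in leukaemic cells). Sod2 (96.05 and 116 CPM) then exceeded Nfe2l2, Nqo1 and Hmox1 in both groups of model 2.
As a description of their pattern over the 10 libraries of model 1, the genes whose log2 CPM followed Cat most closely were Prmt3 (Pearson's r = 0.96), Dtnbp1 (r = 0.96) and Dnajc30 (r = 0.96). For Hmox1 they were Vps26a (r = 0.96), Pgrmc2 (r = 0.94) and Gm34590 (r = 0.94), the last of which was between 0.178 and 0.679 CPM. These were the highest values among the other tested genes, over points that share groups, so no p is attached.

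The wider oxidant defence network was read from 5 lists of 82 genes, of which 72 were tested in model 1. Between leukaemic and preleukaemic TgSpi1FA−/− cells, 3 of the 72 were called higher and 8 lower (15.3%, beside 13.3% of all genes, 6.82% higher and 6.49% lower), with a median log2 fold change of −0.06. Both subunits of glutamate cysteine ligase, which makes the precursor of glutathione, were lower. Gclc was between 74.1 and 91.9 CPM in leukaemic and between 143 and 242 CPM in preleukaemic cells (log2 fold change −1.32, SE 0.22, adjusted p = 0.0104), and it remained called in 12 of 12 alternatives. Gclm was between 168 and 232 CPM against 382 to 574 CPM (−1.22, SE 0.27, adjusted p = 0.0230), called in 8 of 12 alternatives and not without leukemic_39 (adjusted p = 0.0714).
Slc40a1, the iron exporter ferroportin, was between 10.8 and 17.7 CPM in leukaemic and between 107 and 139 CPM in preleukaemic TgSpi1FA−/− cells (log2 fold change −3.10, SE 0.20, adjusted p = 0.000302), called in 12 of 12 alternatives. Against TgSpi1FA+/+ preleukaemic cells (71.8 to 88.3 CPM) it was also lower (−2.51, SE 0.19, adjusted p = 0.00103). In model 2 it was between 41.5 and 121 CPM in leukaemic and between 38.6 and 117 CPM in preleukaemic cells (0.12, adjusted p = 0.911), and the changes in both models differed by −3.24 (SE 0.54, adjusted p = 0.0285).
Taldo1 (−1.26) and Me1 (−0.86), enzymes of the pentose phosphate pathway and of NADPH supply, were also called lower, as were Keap1, the inhibitor of NRF2 (−0.60, adjusted p = 0.0376), Ucp2, a mitochondrial carrier (−1.80), and Oxr1 (−0.87). Idh1, a cytosolic source of NADPH (1.15), Foxo4 (0.93) and Gstm1, a glutathione transferase, were called higher. Gstm1 was between 5.50 and 8.14 CPM in leukaemic and between 0.0647 and 0.146 CPM in preleukaemic TgSpi1FA−/− cells, and it belongs to a family of near-identical genes among which reads may be split. Of these genes, Keap1, Oxr1, Idh1 and Foxo4 were called in 3, 3, 4 and 4 of 12 alternatives. DESeq2 called 10 of 75 higher and 8 lower (beside 19.8% of all genes called), so that the lower calls no longer outnumbered the higher ones. The 11 calls became 13 without leukemic_26, 12 without preleukemic_138, 4 without leukemic_28 or preleukemic_77, 5 without preleukemic_224, 7 without preleukemic_445 or preleukemic_479 and 5 without both of these, with the all-gene share between 2.97% and 16.5% in these fits.

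**Figure D3:**
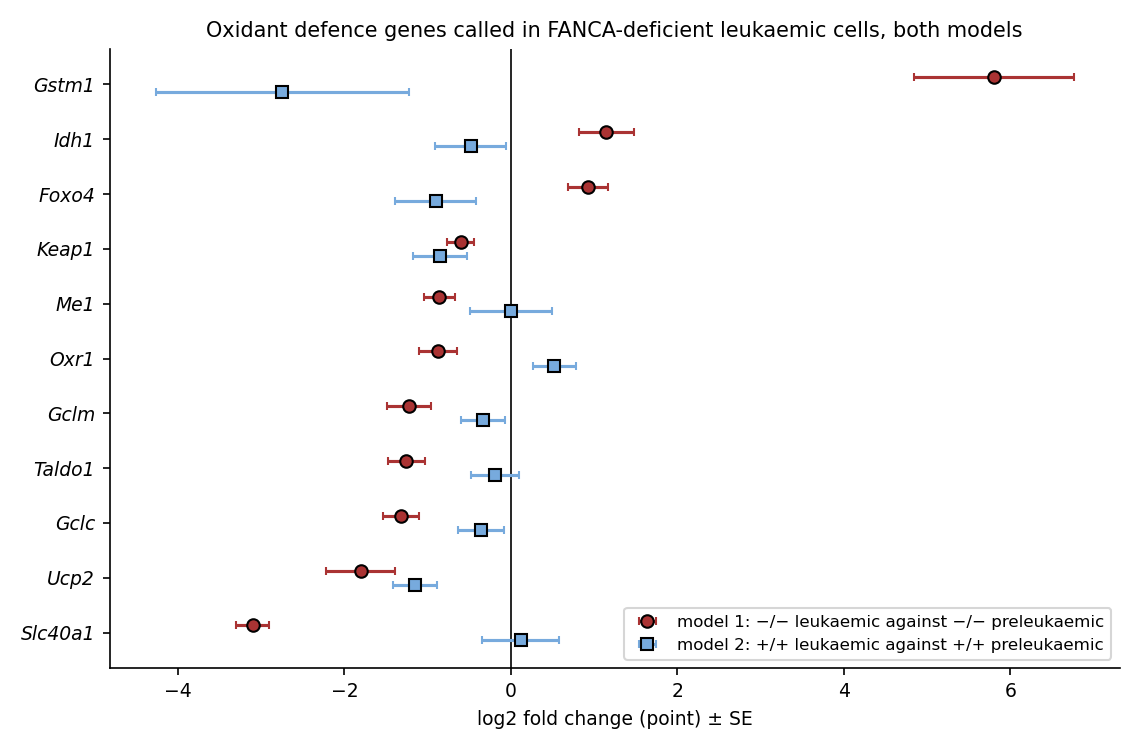
Log2 fold change with SE (x axis) of the 11 genes of the oxidant defence lists (y axis) called between leukaemic and preleukaemic TgSpi1FA−/− cells, with the value of the same gene between leukaemic and preleukaemic cells of model 2. Slc40a1 lay at −3.10 in model 1 and 0.12 in model 2, whereas none of the 11 was called in model 2.

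By list, the thioredoxin and peroxiredoxin system had 0 of 14 tested genes called between leukaemic and preleukaemic TgSpi1FA−/− cells (6 at an unadjusted p under 0.05, median log2 fold change 0.22). The glutathione system had 1 higher and 2 lower of 18 tested, the NRF2 regulators and partners 1 lower of 11, the NADPH, haem and iron handling NRF2 targets 1 higher and 3 lower of 16, and the other oxidant defence genes 1 higher and 2 lower of 13. None of the 6 tested NADPH oxidase subunits was called (1 at an unadjusted p under 0.05).
Against TgSpi1FA+/+ preleukaemic cells, 2 of the 72 genes were called higher and 6 lower in leukaemic TgSpi1FA−/− cells (11.1%, beside 7.01% of all genes, 3.55% higher and 3.46% lower). Gclm, Gclc, Gstm1, Taldo1, Slc40a1 and Ucp2 were called in the same direction as above, and the comparisons share the leukaemic mice. G6pdx, the first enzyme of the pentose phosphate pathway, was called lower (−0.70, SE 0.17, adjusted p = 0.0430), and Ephx1 was called higher at 1.12 to 1.89 CPM in leukaemic cells and at most 0.128 CPM in the TgSpi1FA+/+ cells. The 8 calls became 16 with DESeq2 (5 higher and 11 lower, beside 14.8% of all genes called) and 15 without preleukemic_138 (beside 11.6%). They fell to 1 without preleukemic_445 (beside 0.73% of all genes), preleukemic_479 (0.79%) or leukemic_28 (0.385%). Without both preleukemic_445 and preleukemic_479, Slc40a1 alone was called (adjusted p = 0.0275, beside 0.113% of all genes called). Between the preleukaemic genotypes and in model 2, 0 of the 72 tested genes were called in edgeR's test, beside 0.00747% and 0% of all genes. At an unadjusted p under 0.05, the 5 lists held 7 genes between the preleukaemic genotypes (9.72%, beside 8.65% of all genes) and 19 in model 2 (26.4%, beside 19.9%). They held 34 between leukaemic and preleukaemic TgSpi1FA−/− cells (47.2%, beside 32.4%). For leukaemic TgSpi1FA−/− against TgSpi1FA+/+ preleukaemic cells they held 27 (37.5%, beside 27.2%). For the difference between the changes of both models they held 24 of 74 (32.4%, beside 25.8%). Whether these shares exceed those of all genes was not tested. The difference between the changes of both models was called for 1 gene higher (Gstm1) and 3 lower (Slc40a1, Oxr1 and Glrx3, a glutaredoxin) of 74 tested, or 5.41% beside 4.61% of all genes.

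For 7 mice of model 1, counts from another table were also at hand (4 TgSpi1FA+/+ preleukaemic and 3 TgSpi1FA−/− leukaemic), with 35497594 to 171572736 counts per library. Gpx4 was between 157 and 419 CPM in that table and between 30.3 and 37.8 CPM in the first table for the same mice, a median ratio of 5.39, and 1.79% of 13078 genes differed as much. The pseudogene Gpx4-ps2, which may share reads with Gpx4, was also higher in the second table (6.27 to 12.2 CPM against 0.0952 to 0.824 CPM). Sod2 was lower in the second table by a median ratio of 1.97 and Prdx1 higher by 1.66 (12.3% and 21.5% of genes differed as much). The other 7 genes had median ratios between 1.04 and 1.52, but single mice differed more. Nqo1 was at 250.4 and 83.2 CPM in preleukemic_445 and at 257 and 77.6 CPM in preleukemic_479 (first and second table). Hmox1 was at 8.63 and 30.8 CPM in leukemic_39. Levels therefore depended on the table. The median ratio was largest for Gpx4, Sod2 and Prdx1, followed by Gpx1 (1.52) and Nfe2l2 (1.48). Among single mice, Prdx2 also differed in leukemic_39 (564 and 1012 CPM), beside Nqo1 and Hmox1 above. Levels in model 1 and model 2, which were counted separately, are given side by side without a test.
Within the second table, none of the 10 genes was called between TgSpi1FA−/− leukaemic and TgSpi1FA+/+ preleukaemic cells (1.59% of all genes). Nqo1 was at 83.2 CPM in preleukemic_445, 77.6 CPM in preleukemic_479, 16.8 CPM in preleukemic_451 and 42.9 CPM in preleukemic_138, and at 31.5 CPM in leukemic_26, 27.8 CPM in leukemic_28 and 9.86 CPM in leukemic_39. Its log2 fold change was −1.26 there (SE 0.61, adjusted p = 0.320). Cat was at −0.79 (SE 0.50, adjusted p = 0.428). The order of the leukaemic mice was not the same in both tables: leukemic_39 was the lowest in the first and the highest in the second for Hmox1 (8.63 and 30.8 CPM), Gpx1 (180.3 and 268 CPM) and Prdx1 (176 and 476 CPM). The libraries of preleukemic_445 and preleukemic_479 differed there by a chi-square of 349.7 per degree of freedom, against 393 to 742 for the other pairs of one group.

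**Figure D4:**
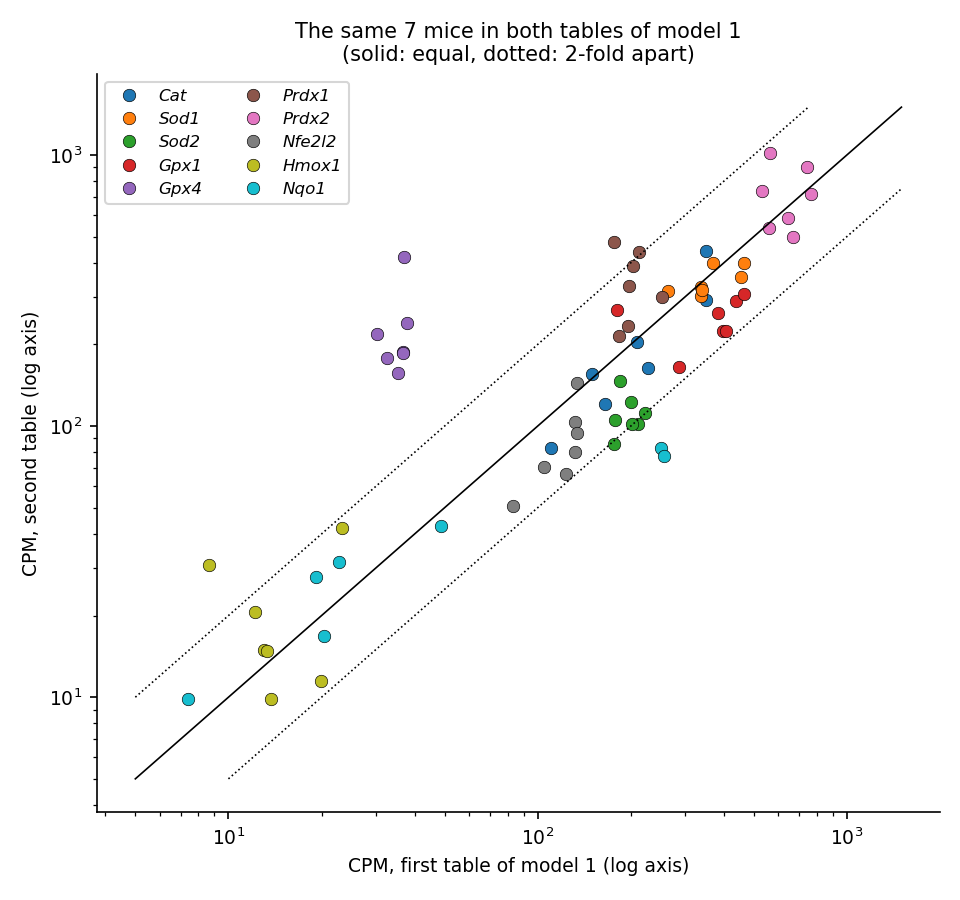
CPM in the second table (y axis, log) against CPM in the first table of model 1 (x axis, log) for the 10 genes in the same 7 mice; the solid line marks equal values and the dotted lines mark values 2-fold apart. Gpx4 lay above the upper dotted line in all 7 mice, with a median ratio of 5.39.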

How the data were processed

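Poly(A) RNA of cultured erythroid blasts was sequenced from stranded TruSeq libraries. The submitters' processing notes name bcl2fastq 2.17.1.14, STAR 2.5.3a, HTSeq 0.6.1p1 and mm10/GRCm38, and the annotation release is not given in the sources used here. The authors deposited unnormalized counts of reads for each Ensembl gene as 1 table per model and a second table for 7 mice of model 1 (the library protocol behind it is not given in the sources used here). A copy of the model 2 table was not used. Groups came from the sample titles, with 1 library per mouse. Genes past filterByExpr were scaled by TMM and fitted per model with glmQLFit and glmQLFTest of edgeR 4.0.16 (R 4.3.3), with all groups of a table in 1 fit, and in 1 fit of all 17 libraries for the difference between models, in which model, strain and protocol are 1 split. A call needed a Benjamini-Hochberg adjusted p under 0.05 over all genes and a fold change of at least 1.5, as the study states (adjusted p alone for the difference between models). SEs were derived from the F statistic, and confidence intervals are at 95%. Alternatives were DESeq2 1.42.0 (Wald test, and its size factors in edgeR), no filter, 1 CPM in 3 libraries, robust empirical Bayes, the adjusted p alone, only the compared groups, each mouse left out, preleukemic_445 and preleukemic_479 as 1 library, and the second table. Leaving out both preleukemic_445 and preleukemic_479, and all alternatives for the pathway lists, were chosen after seeing the data. The chain was tested on simulated data.

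The 10 genes, the lists and the named genes (list genes called in a comparison, up to 8 per list by smallest adjusted p, and the 3 genes most correlated with Cat and Hmox1 on log2 CPM with a pseudocount of 0.5) were chosen with earlier results of these data known. Positions and exon lengths came from GENCODE M21 (GRCm38), which held 99.804% and 99.866% of the identifiers of both models, and promoters from RefSeq. Depth was 29964576 to 38217654 counts in model 1 and 37726753 to 40514205 in model 2, and the precision was limited by 3 or 4 mice per group. Counting error was not compared with the spread between mice gene by gene. That spread was small for Gpx4 in TgSpi1FA−/− leukaemic cells (36.4 ± 0.858 CPM, SD, n = 3).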

Additional observations from a re-analysis of the deposited data

Results flagged for a closer look

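In 20 groups of 4 mice checked (10 genes in both preleukaemic TgSpi1FA+/+ groups), 1 mouse stood apart from the other 3 by Dixon's criterion in 2 groups, where chance gives about 1 in 20. For Nfe2l2, the TgSpi1FA+/+ preleukaemic mouse preleukemic_451 of model 1 was at 83.5 CPM, and the other 3 were between 132 and 134 CPM. For Hmox1, preleukemic_138 of the same group was at 23.2 CPM, and the other 3 were between 12.2 and 13.8 CPM. Of the 3 lower or higher mice in each case, preleukemic_445 and preleukemic_479 were the near-identical libraries. In the second table, preleukemic_451 was again the lowest for Nfe2l2 (50.5 CPM, others 94.7 to 145 CPM) and preleukemic_138 again the highest for Hmox1 (42.2 CPM, others 9.82 to 20.6 CPM).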

How the results depend on the processing

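With 3 or 4 mice per group, intervals were wide for genes that varied most between mice. Examples in the difference between models are −4.01 to 0.77 for Nqo1 and −2.79 to 0.68 for Hmox1. No paired analysis was possible because the groups share no replicate numbers (mice are named by their own number). Of 370 values of the 10 genes under alternatives that left out no single mouse, 351 kept direction and side of the threshold, 2 passed it and 17 changed direction. Of 540 values with 1 mouse left out, 484 kept both, 8 passed the threshold and 48 changed direction.
The number of the 10 genes called rose from 0 to 1 (Cat) with DESeq2's Wald test and ranged from 0 to 2 with 1 mouse left out between leukaemic and preleukaemic TgSpi1FA−/− cells (2 without leukemic_26, beside 16.5% of all genes, and 1 without preleukemic_451, beside 13.3%). Against TgSpi1FA+/+ preleukaemic cells it was 1 (Nqo1) with DESeq2 and 0 to 1 with 1 mouse left out (without leukemic_26, where it was Gpx1, preleukemic_451 or preleukemic_138, beside 13.6%, 2.86% and 11.6%), and for the difference between models 0 to 2 (2 without preleukemic_812, beside 9.38%). The cause was not tested. Over all genes, the calls moved from 1782 to between 414 and 3099, from 939 to between 16 and 2245, and from 673 to between 1 and 2043 in the same comparisons. Between the preleukaemic genotypes they moved from 1 to at most 256, and in model 2 from 0 to at most 470, both with DESeq2.
Several values changed direction. Prdx2 between leukaemic and preleukaemic TgSpi1FA−/− cells turned to 0.04 (0.0388) with DESeq2's size factors, 0.0334 with DESeq2, 0.0060 without a filter, 0.0104 with 1 CPM in 3 libraries and 0.0261 with only the compared groups. Against TgSpi1FA+/+ preleukaemic cells, Sod2 turned to 0.0267, 0.0214, 0.0027 and 0.0167 under the first 4 of these. Nfe2l2 there turned to 0.0220, 0.0169 and 0.0124 (size factors, DESeq2 and 1 CPM), to 0.0408 with preleukemic_445 and preleukemic_479 as 1 library and to 0.14 without both. Without both, Gpx4 there turned to −0.0408, and between the preleukaemic genotypes Sod2 turned to −0.0496 and Nqo1 to 0.75.
With 1 mouse left out, values between leukaemic and preleukaemic TgSpi1FA−/− cells ranged from −0.22 to 0.066 for Sod1, −0.13 to 0.016 for Sod2, −0.14 to 0.15 for Prdx1 and −0.080 to 0.099 for Prdx2. Between the preleukaemic genotypes they ranged from −0.0135 to 0.12 for Sod2, −0.17 to 0.16 for Gpx1, −0.17 to 0.067 for Gpx4, −0.041 to 0.17 for Prdx1 and −0.048 to 0.16 for Nfe2l2. For leukaemic TgSpi1FA−/− against TgSpi1FA+/+ preleukaemic cells they ranged from −0.051 to 0.064 for Sod2, −0.090 to 0.20 for Prdx1, −0.14 to 0.077 for Nfe2l2 and −0.53 to 0.098 for Hmox1. In model 2 they ranged from −0.040 to 0.33 for Sod1, −0.048 to 0.74 for Gpx1, −0.28 to 0.28 for Prdx2 and −0.48 to 0.66 for Nqo1, and for the difference between models from −0.20 to 0.31 for Cat and −0.31 to 0.28 for Prdx2.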
